A study of Homo sapiens
Mus musculus and Homo sapiens with 12 samples.

Results

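Human transcripts of mouse embryonic stem cell and human fibroblast heterokaryons were compared between day 3 and day 2 after fusion. A heterokaryon is a cell made by fusing the membranes of different cells, in which the nuclei stay separate. Here D3 mouse embryonic stem cells were fused with MRC5, a human fibroblast line derived from lung, so that human fibroblast nuclei shared a cytoplasm with mouse stem cell nuclei. The day 3 group and the day 2 group held 2 libraries each, out of 12 in the series, all of polyadenylated RNA from at least 30000 sorted heterokaryons per sample. Both groups had the same cell partners and carried no added gene or drug according to the labels. The difference that the labels name is the time since fusion. Values are given beside them, as background, for 2 day 1 heterokaryon libraries and for 2 co-cultures, in which both cell types were grown together without fusion. Heterokaryons are transient and do not grow into a stable line, so each day is a separate collection. A difference between the days therefore cannot be told apart from a difference between collections. The labels do not say whether the replicates came from separate fusions, and p-values therefore measure only the spread between these libraries.

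A gene's level is the sum of its human RefSeq coding transcripts, in a unit of the RPKM form (reads scaled by transcript length and by library size), as the authors deposited it. Of 18762 human coding genes in the annotation, 4829 had every coding transcript inside the stretch that all 4 tables list. Of these, 4624 were used: 85 lay next to accessions that no annotation names, and 121 had an accession that the tables appear to have lost, with 1 gene in both classes. The tables list no value of 0, so 0 stands here for a covered transcript that a table leaves out. Of the genes used, 3144 were listed in at least 1 of the 4 libraries, and 2174 passed a filter of 1 RPKM or more in at least 2 of them and were tested. Genes outside these limits, among them many well known ones, were not analysed here.

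In fusions of this kind, factors of the stem cell cytoplasm reach the fibroblast nucleus, and the human genome can begin to transcribe genes of pluripotent and early embryonic cells without the nuclei fusing or the cell dividing. Fibroblasts are known for secreting and anchoring to a collagen matrix, and for a contractile actin cytoskeleton that responds to TGF-beta, serum and tension. A day 3 to day 2 comparison addresses how far the early state seen after fusion persists in the human nuclei.

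The tested genes summed to 145164 and 167897 RPKM in the day 3 libraries and to 157037 and 157411 RPKM in the day 2 libraries. These values are already scaled to library size, so their sums do not measure depth. The median level was 8.94 and 7.84 RPKM at day 3 and 9.59 and 10.1 RPKM at day 2. Of the genes tested, 118 and 90 were at 0 at day 3, and 24 and 100 at day 2. Up to the shared stop, the tables listed 9147 and 9295 human coding transcripts at day 3 and 10081 and 9438 at day 2. The number of reads behind each value is not known, so no counting interval can be given. For genes with a single coding transcript, low values multiplied by transcript length in kilobases were also examined. They were densest at 0.198 and 0.491 at day 3 and at 0.28 and 0.312 at day 2. If that point stands for a single read, a higher one means fewer reads, which was not tested. The day 3 replicates differed more from each other than the day 2 replicates did: the median absolute difference between replicates was 0.654 at day 3 and 0.373 at day 2, on the log2(RPKM + 1) scale. More than 2-fold separated the replicates for 704 genes (32.4%) at day 3 and for 418 genes (19.2%) at day 2. The day 3 replicates correlated with each other at r = 0.889 across genes, and with the day 2 libraries at 0.884 to 0.916, while the day 2 replicates correlated at 0.924. These are correlations across 2174 genes, which are not independent replicates.

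The libraries held fibroblast markers on both days. Of the 12 fibroblast markers checked, 7 were covered, and these summed to 6185 and 5809 RPKM at day 3 and to 4288 and 4832 RPKM at day 2. VIM, the intermediate filament protein of mesenchymal cells, stood at 1944 and 1429 RPKM at day 3 and at 1608 and 1698 RPKM at day 2. LUM, a proteoglycan of connective tissue, was missing, and taken as 0, in both day 3 libraries and in 1 of the day 2 libraries, where the other had 1.46 RPKM. None of the 5 covered neural and 3 covered endoderm and mesoderm markers passed the filter. In RNA from sorted pools, fewer cells of a type and less RNA per cell cannot be told apart. No source used here says how reads were divided between mouse and human transcripts, and the part of mouse reads in any human value was not tested.

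No gene passed the test between day 3 and day 2. Of 2174 genes, 0 were called higher (0%) and 0 lower (0%) at an adjusted p under 0.05 by limma with Benjamini-Hochberg adjustment. At an unadjusted p under 0.05 stood 171 genes (7.87%), of which 58 (2.67%) were higher and 113 (5.2%) lower at day 3. Higher genes made up 33.9% of the 171 with the deposited values, and 48.7% of the genes at that p once quantile normalization had set the same distribution in every library. As deposited, the median log2 fold change of all genes tested was -0.18, and after quantile normalization it was -0.0031, so the values that follow are to be read against a shift of that size. The day 3 values lay above both day 2 values for 271 genes (12.5%) and below both for 532 genes (24.5%). After quantile normalization these counts were 393 and 376, so the 2 shares describe the deposited values. Of the genes tested, 64 passed the filter through day 2 alone and 17 through day 3 alone, which fixed their direction. By the fitted log2 fold change, whatever its size, 825 genes (37.9%) were higher and 1349 lower. An exact permutation test of 2 against 2 libraries cannot give a p below 0.333, and single genes are therefore described by their 4 values and by the limma fit.

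**Figure D1:**
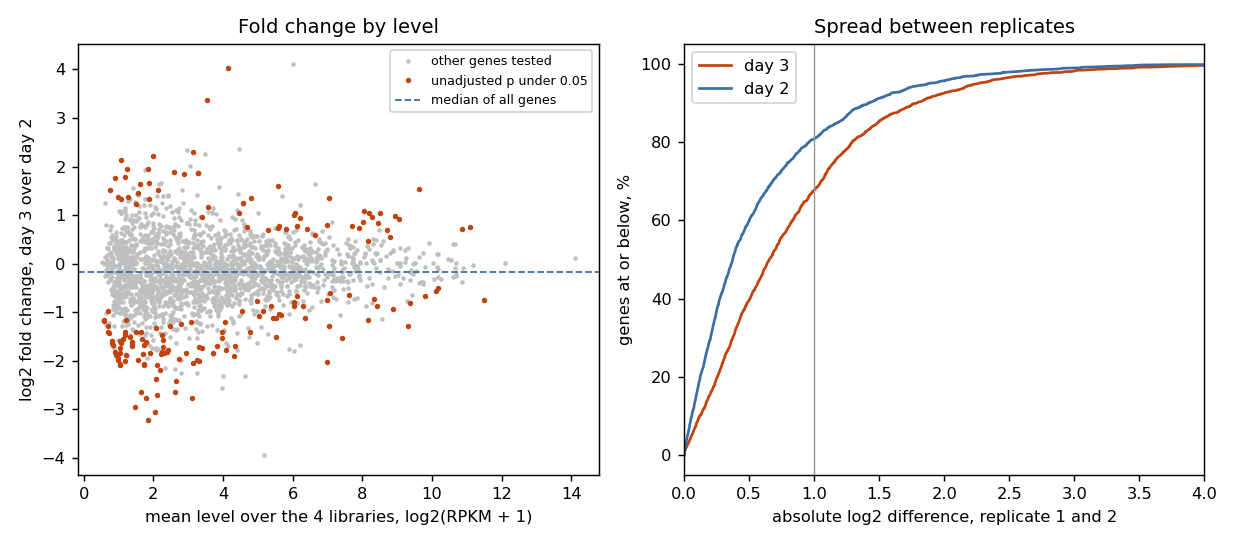
Left, log2 fold change of day 3 over day 2 (vertical) against mean level over the 4 libraries in log2(RPKM + 1) (horizontal) for the 2174 genes tested, with the 171 genes at an unadjusted p under 0.05 in red and the median of -0.18 as a dashed line. Right, share of genes in percent at or below a given absolute log2 difference between the replicates, in which 32.4% of genes at day 3 and 19.2% at day 2 lie beyond the grey line at 2-fold.

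Genes of the fibroblast matrix had mostly higher means at day 3, without a call. Of 20 tested members of the list of 34, 17 had a higher mean and 3 a lower mean at day 3, and 0 were called. In 11 of the 20 both day 3 libraries lay above both day 2 libraries, against 12.5% of all genes, and in 0 did they lie below. The median log2 fold change of the list was 0.64, beside -0.18 for all genes tested. Leaving out 1 of the 4 libraries at a time gave medians from 0.26, without day 3 replicate 2, to 0.64, with 0.38 without day 2 replicate 1.

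COL1A1, which encodes the main chain of type I collagen, stood at 2980 and 2702 RPKM at day 3 and at 1576 and 1771 RPKM at day 2. The replicates lay close together on both days and the groups did not overlap, with a log2 fold change of 0.76 ± 0.20 (SE) and an adjusted p of 0.361. COL1A2, which encodes the partner chain in the same fibril, had 1069 and 1452 RPKM at day 3 and 976 and 1191 RPKM at day 2. Its groups overlapped, and its log2 fold change was 0.21 ± 0.26. COL5A1, a chain of the collagen that starts fibril formation, had 109 and 84.0 RPKM at day 3 and 42.2 and 49.5 RPKM at day 2, a log2 fold change of 1.05 ± 0.26 with an adjusted p of 0.345. For COL5A2, the other type V chain covered, the values overlapped at 62.0 and 75.1 RPKM at day 3 and 66.6 and 78.8 RPKM at day 2. COL3A1, the type III collagen chain, had 139 and 148 RPKM at day 3 and 73.4 and 111 RPKM at day 2. COL6A1, a chain of the beaded filament collagen, had 508 and 1060 RPKM at day 3 and 377 and 398 RPKM at day 2. Both day 3 libraries were above both day 2 libraries for COL3A1 and COL6A1, and the day 3 replicates of COL6A1 were the farther apart.

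TNC encodes tenascin C, a matrix glycoprotein of wounds and embryonic tissue, and had the highest fold change of the list. It stood at 280 and 159 RPKM at day 3 and at 97.1 and 68.5 RPKM at day 2, a log2 fold change of 1.36 ± 0.34 with an adjusted p of 0.347. LTBP2, a microfibril protein, had 69.9 and 53.5 RPKM at day 3 and 34.6 and 37.6 RPKM at day 2. LOXL2, an enzyme that crosslinks collagen, had 249 and 379 RPKM at day 3 and 176 and 190 RPKM at day 2. THBS1, the adhesive glycoprotein thrombospondin 1, had 426 and 478 RPKM at day 3 and 284 and 273 RPKM at day 2. In each of these the day 3 libraries lay above the day 2 libraries, without a call. Other matrix genes did not separate: SPARC, a collagen-binding glycoprotein, had 560 and 659 RPKM at day 3 and 629 and 559 RPKM at day 2, and the microfibril gene FBN1 had 60.7 and 40.6 RPKM at day 3 and 51.8 and 55.0 RPKM at day 2.

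The 2 chains of the type IV collagen of basement membranes, which are encoded by neighbouring genes on chromosome 13, gave similar values. COL4A2 had the smallest unadjusted p among the 10 higher genes that the naming rule chose by rank. It stood at 428 and 406 RPKM at day 3 and at 188 and 217 RPKM at day 2, a log2 fold change of 1.04 ± 0.21 with an adjusted p of 0.345. COL4A1 had 455 and 329 RPKM at day 3 and 158 and 209 RPKM at day 2, a log2 fold change of 1.08 ± 0.37 with an adjusted p of 0.552. The laminins of the same membrane were divided. LAMB2 had 61.7 and 103 RPKM at day 3 and 46.1 and 55.0 RPKM at day 2, and LAMB1 had 85.0 and 102 RPKM at day 3 and 79.0 and 81.1 RPKM at day 2. LAMC1 had 121 and 157 RPKM at day 3 and 183 and 164 RPKM at day 2, and LAMA4 overlapped between the days. Over the 8 tested members of the basement membrane list, 5 were higher and 3 lower at day 3, with a median log2 fold change of 0.16, and of 0.095 without day 2 replicate 1 and 0.39 without day 3 replicate 1.

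Among integrins, the receptors that anchor cells to this matrix, 6 of 10 tested subunits were higher and 4 lower, and 0 were called. ITGA11, a collagen receptor subunit, had 26.4 and 47.2 RPKM at day 3 and 15.4 and 13.3 RPKM at day 2, a log2 fold change of 1.25 ± 0.43. ITGA5, which pairs to form the fibronectin receptor, had 236 and 284 RPKM at day 3 and 192 and 181 RPKM at day 2. The laminin receptor subunit ITGA6 lay the other way, at 12.9 and 4.06 RPKM at day 3 and 14.2 and 25.4 RPKM at day 2.

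**Figure D2:**
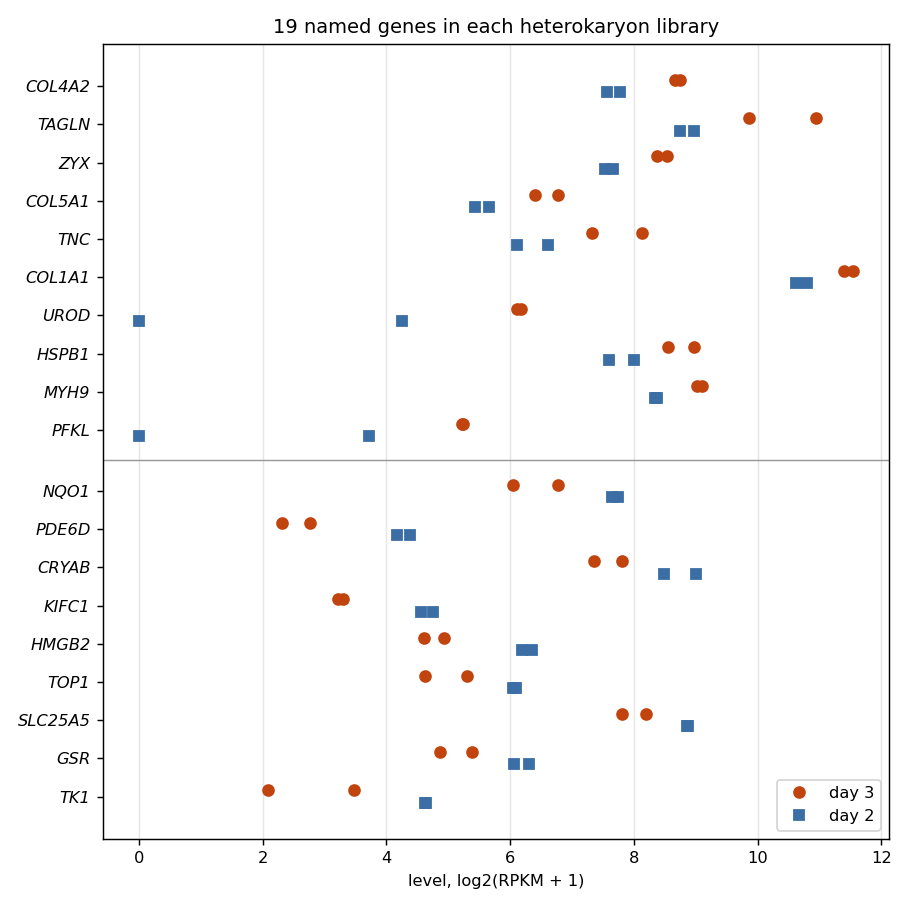
Level in log2(RPKM + 1) (horizontal) of 19 genes in each heterokaryon library, day 3 as red circles above day 2 as blue squares, with 10 genes higher at day 3 in the upper block and 9 lower in the lower block. The days do not overlap in any of these genes because the rule that chose them asked for it; UROD and PFKL each have 1 day 2 library at 0.

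Actin cytoskeleton and contractile genes were higher in part. TAGLN, an actin-binding protein of smooth muscle and activated fibroblasts, stood at 1963 and 929 RPKM at day 3 and at 499 and 431 RPKM at day 2, a log2 fold change of 1.54 ± 0.37 with an adjusted p of 0.345. The day 3 replicates were farther apart than the day 2 replicates, and both lay above day 2. ACTA2, smooth muscle actin, had 373 and 202 RPKM at day 3 and 154 and 164 RPKM at day 2, and CNN1, which encodes calponin, had 62.4 and 29.7 RPKM at day 3 and 11.4 and 23.4 RPKM at day 2. ACTG2, the other smooth muscle actin, had 475 and 65.5 RPKM at day 3 and 60.8 and 51.0 RPKM at day 2, so that nearly all of its difference lay in replicate 1. In TAGLN, ACTA2, CNN1 and ACTG2 replicate 1 was the higher of the day 3 libraries.

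ZYX encodes zyxin, a protein of focal adhesions and stress fibres, and had 331 and 371 RPKM at day 3 and 184 and 201 RPKM at day 2. MYH9, the heavy chain of nonmuscle myosin, had 546 and 520 RPKM at day 3 and 325 and 331 RPKM at day 2. In both genes the replicates were close and the days apart, with log2 fold changes of 0.86 ± 0.21 and 0.70 ± 0.21 and adjusted p values of 0.345 and 0.416. Other members of the contractile list lay the other way or overlapped. CRIP1, a small LIM domain protein, had 75.3 and 52.2 RPKM at day 3 and 114 and 131 RPKM at day 2. CSRP2, another LIM domain protein, had 6.76 and 1.40 RPKM at day 3 and 18.6 and 14.9 RPKM at day 2. DES, the muscle intermediate filament desmin, overlapped at 36.7 and 55.8 RPKM at day 3 and 55.1 and 49.9 RPKM at day 2. Of the 10 members tested, 7 were higher and 3 lower, with a median log2 fold change of 0.59. This median was 0.16 without day 3 replicate 1, 1.24 without day 3 replicate 2, and -0.58 when only genes with a single transcript were kept.

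TGF-beta, the growth factor known to raise matrix and contractile genes in fibroblasts, has several target genes among those covered. Of 13 tested members of the TGF-beta and BMP list, 9 were higher and 4 lower, 8 had both day 3 libraries above both day 2 libraries, beside 12.5% of all genes, 1 had both below, beside 24.5%, and 0 were called. The median log2 fold change was 0.47, and 0.29 without day 3 replicate 2. Among the targets, TGFBI, a secreted matrix protein, had 2631 and 2151 RPKM at day 3 and 1573 and 1319 RPKM at day 2, a log2 fold change of 0.72 ± 0.22 with an adjusted p of 0.461. CCN1 and CCN2, matricellular proteins also induced by tension, had 340 and 808 RPKM and 55.2 and 228 RPKM at day 3, against 277 and 232 RPKM and 44.3 and 51.5 RPKM at day 2. Replicate 2 was the higher of the day 3 libraries in both CCN genes, the reverse of the contractile genes. Among the ligands, TGFB1 overlapped at 47.7 and 94.9 RPKM at day 3 and 58.3 and 79.5 RPKM at day 2, and TGFB2 had 13.6 and 9.44 RPKM at day 3 and 2.83 and 7.67 RPKM at day 2. INHBA, the activin subunit, had 97.5 and 163 RPKM at day 3 and 90.8 and 90.2 RPKM at day 2. The receptor TGFBR2 overlapped, and the coreceptor TGFBR3 was at 0.332 and 0 RPKM at day 3 and 3.58 and 1.55 RPKM at day 2. TGFBR3 passed the filter through day 2 alone and is the 1 member below. ID2, an inhibitor of basic helix-loop-helix factors, had 4.05 and 5.77 RPKM at day 3 and 1.498 and 1.18 RPKM at day 2.

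Among immediate early transcription factors, JUNB, an AP-1 subunit, had one of the largest fold changes of the genes named. It stood at 19.8 and 17.3 RPKM at day 3 and at 2.67 and 3.29 RPKM at day 2, a log2 fold change of 2.30 ± 0.47 with an adjusted p of 0.345. JUN, another AP-1 subunit, had 46.6 and 70.5 RPKM at day 3 and 37.4 and 31.4 RPKM at day 2. EGR1, a zinc finger factor, had 37.2 and 184 RPKM at day 3 and 37.5 and 25.9 RPKM at day 2, and its groups overlapped. ATF3 and MYC lay lower: ATF3, a stress factor, had 99.7 and 100 RPKM at day 3 and 136 and 136 RPKM at day 2. MYC had 49.5 and 54.5 RPKM at day 3 and 57.5 and 60.8 RPKM at day 2. The list of 6 tested genes had 4 higher, 2 lower and 0 called, with a median log2 fold change of 0.65, and of 0.34 without day 3 replicate 2.

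Genes of the cleavage stage embryo had lower means at day 3, without a call. This group is transcribed when the human embryonic genome is first switched on. Of the 18 genes on the list, 8 were covered and 7 tested. All 7 had a lower mean at day 3, 5 had both day 3 libraries below both day 2 libraries, against 24.5% of all genes, and 0 were called. The median log2 fold change was -1.60, the value of DUXA itself. LEUTX and DUXA passed the filter through day 2 alone, so they could only be lower. Both are among the 5, and no count or median was computed without them. This list, like the others, was chosen with earlier results of these data known. Its share beside that of all genes is therefore a description and not a test.

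LEUTX encodes a homeodomain factor of the 4- to 8-cell embryo and had the second smallest p of all genes tested. It stood at 0 and 0.382 RPKM at day 3 and at 14.5 and 6.80 RPKM at day 2, a log2 fold change of -3.23 ± 0.50 with an adjusted p of 0.200. DUXA, a related homeobox gene, was at 0 and 0.0289 RPKM at day 3 and 1.90 and 2.24 RPKM at day 2. It also had 1.74 RPKM in 1 co-culture library, with 0 in the other, and 0.503 and 0.144 RPKM in 2 libraries of unfused fibroblasts. KDM4E, a histone demethylase of the KDM4 family, had 1.01 and 2.19 RPKM at day 3 and 7.43 and 8.46 RPKM at day 2, a log2 fold change of -1.82 ± 0.47 with an adjusted p of 0.361. Both day 3 libraries were below both day 2 libraries in KDM4E. The filter fixed this direction for LEUTX and DUXA, whose day 3 values lay at or near 0.

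The other 4 tested members also had lower means at day 3 than at day 2, but their mean RPKM at day 3 was higher than that of LEUTX, DUXA and KDM4E. KHDC1L, a KH domain gene of the oocyte and embryo, had 15.1 and 107 RPKM at day 3 and 138 and 125 RPKM at day 2. RFPL4B had 5.39 and 14.9 RPKM at day 3 and 24.1 and 26.1 RPKM at day 2. RFPL4A and PRAMEF12 overlapped between the days, at 4.92 and 16.6 RPKM and 1.33 and 5.22 RPKM at day 3 against 13.7 and 23.9 RPKM and 9.99 and 2.96 RPKM at day 2. Day 3 replicate 2 was the higher replicate in all 7 genes, and without day 3 replicate 1 the median of the list was -0.71. TRIM64 was listed only in 1 day 2 library, at 0.747 RPKM, and was not tested.

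Few genes of the pluripotency list were covered, and those showed no separation. Of 31 genes 10 were covered and 3 tested, and none of the 3 had separate groups. CRIPTO, a coreceptor for the TGF-beta family ligand NODAL, had 6.26 and 0.752 RPKM at day 3 and 5.89 and 9.49 RPKM at day 2, a log2 fold change of -1.25 ± 0.71. KLF5 had 4.38 and 10.6 RPKM at day 3 and 5.67 and 6.90 RPKM at day 2, and TRIM71, a regulator of embryonic messenger RNA, had 1.61 and 1.16 RPKM at day 3 and 0.886 and 1.47 RPKM at day 2. The direction of KLF5 and TRIM71 turned when 1 library was left out. SOX2, FGF4 and LEFTY2 were missing from all 4 tables and taken as 0, and DPPA5, NR0B1, UTF1 and LIN28B did not pass the filter. POU5F1 has 3 coding accessions, of which only 2 were covered; these summed to 27.3 and 18.7 RPKM at day 3 and 56.9 and 48.6 RPKM at day 2, a log2 fold change of -1.19 ± 0.39 with an adjusted p of 0.524 where such genes were added.

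**Figure D3:**
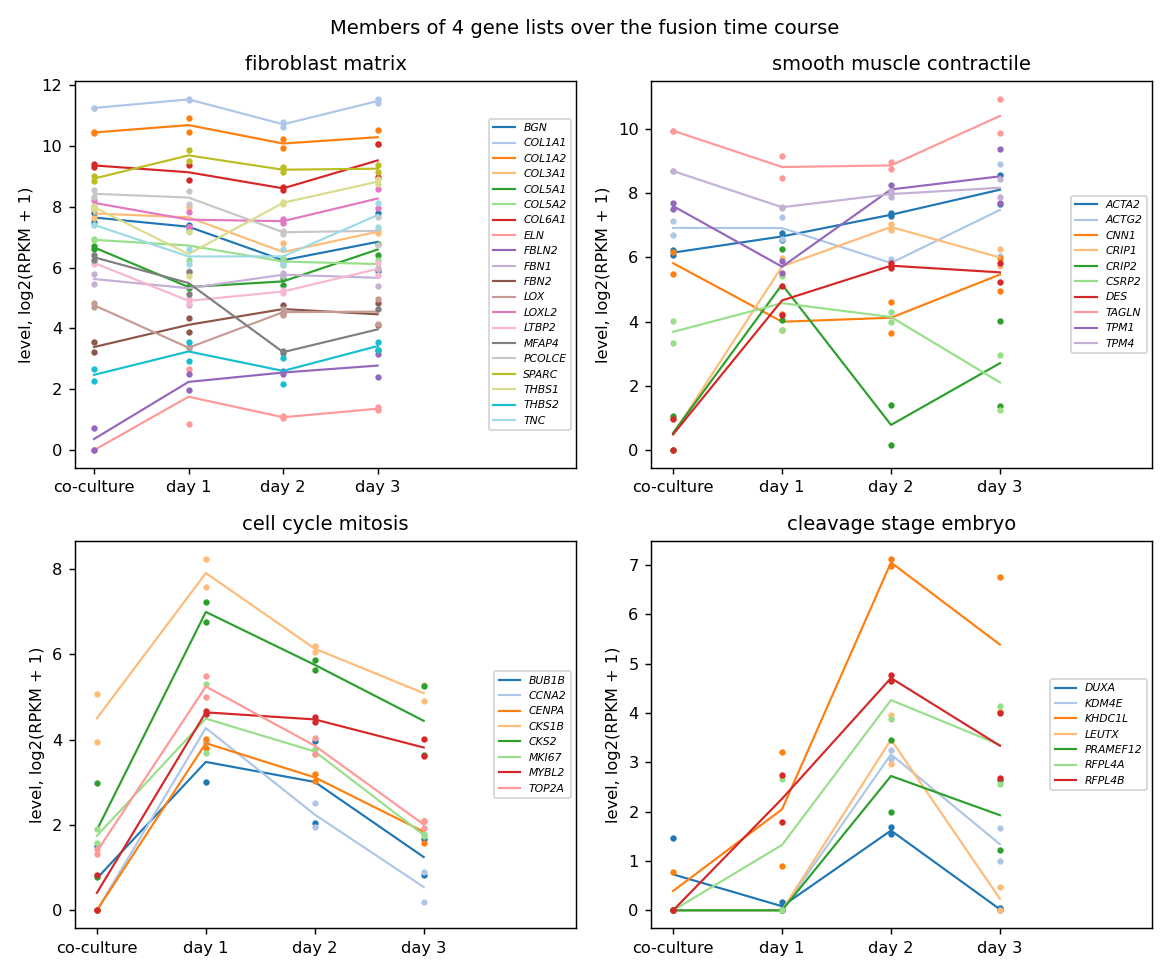
Level in log2(RPKM + 1) (vertical) of every tested member of 4 gene lists in co-culture and in heterokaryons of day 1, day 2 and day 3 (horizontal), with 1 dot per library and a line through the means of 2 libraries. Cell cycle genes are highest at day 1 and lowest among the heterokaryons at day 3, and cleavage stage genes are highest at day 2.

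Cell cycle genes had lower means at day 3, without a call. Of 30 genes on the mitosis list 9 were covered and 8 tested, and in all 8 both day 3 libraries lay below both day 2 libraries, beside 24.5% of all genes. None was called. The median log2 fold change was -1.5, with a range from -1.96 to -0.66. CCNA2 passed the filter through day 2 alone.

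TOP2A, the topoisomerase that untangles chromosomes, had 2.80 and 3.27 RPKM at day 3 and 11.8 and 15.5 RPKM at day 2, a log2 fold change of -1.85 ± 0.47 with an adjusted p of 0.361. MKI67, the proliferation antigen that coats mitotic chromosomes, had 2.36 and 2.45 RPKM at day 3 and 11.7 and 12.7 RPKM at day 2, with a log2 fold change of -1.96 ± 0.61. The replicates of both genes lay close on both days. CCNA2, cyclin A2, had 0.140 and 0.869 RPKM at day 3 and 2.90 and 4.75 RPKM at day 2. CKS1B and CKS2, small subunits that bind cyclin-dependent kinases, had 28.8 and 37.9 RPKM and 11.4 and 36.9 RPKM at day 3, against 72.5 and 65.8 RPKM and 48.4 and 57.8 RPKM at day 2. CENPA, the centromeric histone, had 2.01 and 3.28 RPKM at day 3 and 8.13 and 7.23 RPKM at day 2. MYBL2, a transcription factor of proliferating cells, had 15.1 and 11.3 RPKM at day 3 and 22.1 and 20.4 RPKM at day 2. The spindle kinesin KIFC1 and the chromatin protein HMGB2, both chosen by rank and not by this list, had 8.87 and 8.27 RPKM and 29.7 and 23.4 RPKM at day 3, against 26.0 and 22.6 RPKM and 72.4 and 80.9 RPKM at day 2. Their log2 fold changes were -1.40 ± 0.36 and -1.504 ± 0.40, and their adjusted p values 0.367 each.

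Genes of DNA replication and nucleotide supply lay the same way. Of 7 tested members 6 were lower and 1 higher, 4 were below in both libraries, beside 24.5% of all genes, 1 was above in both, beside 12.5%, and 0 were called. Over the 7 the median log2 fold change was -0.84, and -0.31 without day 3 replicate 2. TK1, the thymidine kinase of dividing cells, had 3.23 and 10.2 RPKM at day 3 and 23.6 and 23.8 RPKM at day 2, a log2 fold change of -1.85 ± 0.54 with an adjusted p of 0.416. CDC45, a part of the replicative helicase, had 3.10 and 2.07 RPKM at day 3 and 7.85 and 7.39 RPKM at day 2. LIG1, the ligase that joins nascent strands, had 13.2 and 10.7 RPKM at day 3 and 18.7 and 26.2 RPKM at day 2. POLD1, a catalytic polymerase subunit, was the exception at 2.73 and 5.66 RPKM at day 3 and 2.14 and 2.24 RPKM at day 2. TOP1, the topoisomerase of transcription and replication, had 38.4 and 23.7 RPKM at day 3 and 65.3 and 67.1 RPKM at day 2, with a log2 fold change of -1.11 ± 0.31. The variant histone H2AZ1 had 68.4 and 68.3 RPKM at day 3 and 107 and 84.2 RPKM at day 2.

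The day 1 and co-culture libraries place these levels. In co-culture, day 1, day 2 and day 3, TOP2A averaged 1.60, 37.5, 13.6 and 3.03 RPKM and HMGB2 averaged 10.4, 138, 76.6 and 26.5 RPKM over the 2 libraries of each group. CCNA2 was missing from both co-culture tables and had 23.2 and 14.4 RPKM at day 1. These 3 genes were highest at day 1 among the heterokaryons and lowest at day 3, and day 3 lay nearest to co-culture. Unfused fibroblasts lay above both co-culture and day 3. TOP2A had 8.54 and 11.2 RPKM in 2 unfused libraries, and 1 unfused library had 38.9 RPKM of HMGB2 and 3.53 RPKM of CCNA2. LEUTX and KDM4E were missing from all 4 co-culture and day 1 tables and taken as 0, so their levels were highest at day 2. In the same order COL5A1 averaged 100.4, 40.1, 45.8 and 96.4 RPKM, ZYX averaged 373, 155, 192 and 351 RPKM, and COL1A1 averaged 2423, 2949, 1674 and 2841 RPKM. COL5A1 and ZYX were therefore lower at day 1 and day 2 than in co-culture and at day 3, whereas COL1A1 was lower only at day 2.

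**Figure D4:**
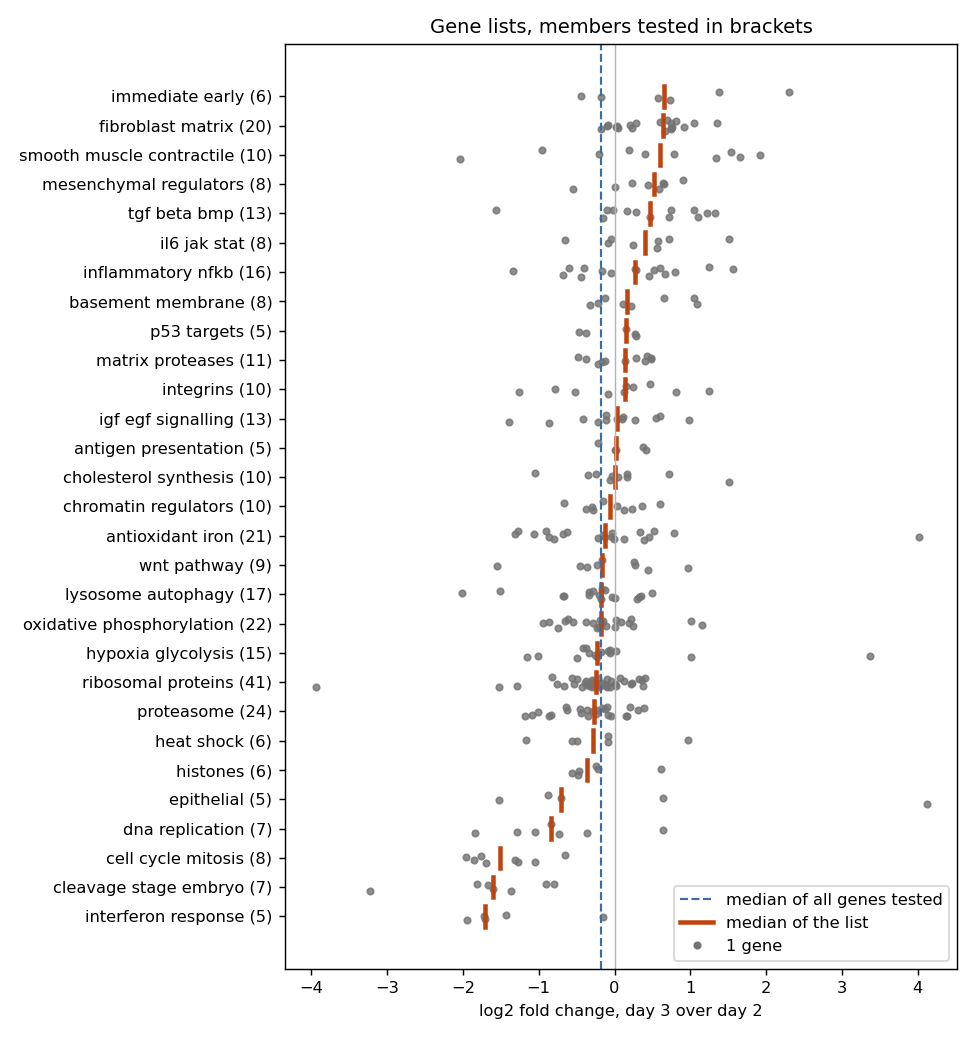
Log2 fold change of day 3 over day 2 (horizontal) for each tested member of the lists with at least 5 tested genes, as grey dots, with the list median as a red bar and the median of all genes tested, -0.18, as a dashed line. Fibroblast matrix at 0.64 lies near the top, and cell cycle, cleavage stage and interferon response genes, at -1.5, -1.60 and -1.71, lie at the bottom. The cleavage stage median is the value of DUXA, which passed the filter through day 2 alone.

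Interferon response genes lay lower, in a small group. Of 29 genes on the list 6 were covered and 5 tested; all 5 had a lower mean at day 3, 3 had both day 3 libraries below both day 2 libraries, beside 24.5% of all genes, and 0 were called. Over the 5 the median log2 fold change was -1.71, and it was -2.36 without day 3 replicate 1 and -1.08 without day 3 replicate 2. IFIT3, an antiviral RNA-binding protein, had 6.25 and 3.21 RPKM at day 3 and 13.3 and 21.8 RPKM at day 2, a log2 fold change of -1.71 ± 0.60 with an adjusted p of 0.552. MX1, an antiviral GTPase, had 3.21 and 0.712 RPKM at day 3 and 7.71 and 8.04 RPKM at day 2. IFIT1 overlapped because 1 day 3 library had 8.47 RPKM while the other was at 0, and the transcription factor IRF1 overlapped at 29.3 and 48.6 RPKM at day 3 and 40.7 and 43.3 RPKM at day 2. Of the antigen presentation genes, HLA-C differed between the day 3 replicates more than between the days.

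The inflammatory list had no common direction, with 9 of 16 tested genes higher, 7 lower and 0 called. The ligands diverged. CCL2, a monocyte chemokine, had 30.5 and 44.4 RPKM at day 3 and 52.2 and 67.6 RPKM at day 2. CXCL1, a neutrophil chemokine, had 59.9 and 9.75 RPKM at day 3 and 13.8 and 4.05 RPKM at day 2, and IL1B overlapped at 99.3 and 66.5 RPKM at day 3 and 126 and 97.0 RPKM at day 2. Among the targets, the complement component C3 had 78.4 and 61.9 RPKM at day 3 and 43.0 and 44.5 RPKM at day 2, and SOD2, the mitochondrial superoxide dismutase, had 439 and 322 RPKM at day 3 and 253 and 273 RPKM at day 2. Both were separate without a call. Of the IL6 family, IL11 had 11.3 and 10.6 RPKM at day 3 and 5.01 and 1.89 RPKM at day 2, whereas LIF, the cytokine that keeps mouse stem cells undifferentiated, overlapped at 33.0 and 25.0 RPKM at day 3 and 22.9 and 25.7 RPKM at day 2. The kinase JAK1 overlapped too, at 38.2 and 42.9 RPKM at day 3 and 41.3 and 44.6 RPKM at day 2.

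Genes of antioxidant defence and iron were divided about as all genes were. NQO1, a quinone reductase induced by NRF2, had the smallest unadjusted p of the 10 lower genes that the naming rule chose by rank. It stood at 109 and 64.8 RPKM at day 3 and 199 and 212 RPKM at day 2, a log2 fold change of -1.28 ± 0.30 with an adjusted p of 0.345. GSR, which regenerates glutathione, had 40.6 and 28.2 RPKM at day 3 and 78.1 and 65.8 RPKM at day 2, with -1.06 ± 0.30. TXN, thioredoxin, had 110 and 111 RPKM at day 3 and 188 and 169 RPKM at day 2. The peroxidase GPX4 lay the other way, at 393 and 518 RPKM at day 3 and 377 and 285 RPKM at day 2. The ferritin light chain FTL, the most abundant of the list, overlapped at 14932 and 22618 RPKM at day 3 and 17211 and 16480 RPKM at day 2. Over the 21 tested genes of antioxidant defence and iron, 14 were lower, 7 higher and 0 called, beside 1349 lower and 825 higher of all genes. Their median log2 fold change was -0.12, near that of all genes, and -0.24 without day 2 replicate 2.

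Small heat shock proteins lay on opposite sides. HSPB1, a chaperone bound to actin filaments, had 375 and 504 RPKM at day 3 and 193 and 257 RPKM at day 2, a log2 fold change of 0.96 ± 0.27 with an adjusted p of 0.370. CRYAB, the related alpha-B crystallin, had 164 and 224 RPKM at day 3 and 514 and 360 RPKM at day 2, a log2 fold change of -1.16 ± 0.30 with an adjusted p of 0.361. Neither gene had overlapping groups, and HSPB2, which neighbours CRYAB in the genome, overlapped at 24.3 and 28.9 RPKM at day 3 and 26.0 and 30.6 RPKM at day 2.

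In the carrier and cilium genes that the naming rule chose by rank, the day 3 libraries were below those of day 2. SLC25A5, a mitochondrial ADP/ATP carrier, had 222 and 292 RPKM at day 3 and 466 and 462 RPKM at day 2, with a log2 fold change of -0.86 ± 0.25. PDE6D, a carrier of prenylated proteins to the cilium, had 3.96 and 5.81 RPKM at day 3 and 17.0 and 19.9 RPKM at day 2, with -1.74 ± 0.41. Their adjusted p values were 0.410 and 0.345. The respiratory chain as a whole did not lie apart: of 22 tested genes of oxidative phosphorylation 14 were lower and 8 higher, with a median of -0.18, the value of all genes. This median was -0.35 without day 3 replicate 1 and -0.045 without day 3 replicate 2. NDUFS8, a subunit of complex I, went against it at 69.9 and 121 RPKM at day 3 and 47.9 and 42.8 RPKM at day 2.

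For UROD and PFKL the values of 0 limit the comparison. UROD, an enzyme of haem synthesis, stood at 71.6 and 68.3 RPKM at day 3 and was missing, and taken as 0, in 1 day 2 library, with 18.1 RPKM in the other. PFKL, a glycolytic phosphofructokinase, stood at 36.4 and 36.6 RPKM at day 3 and at 12.2 RPKM in 1 day 2 library, and was missing, and taken as 0, in the other. Most cells express both enzymes, so such a 0 may be a failed estimate, and no fold is given. Among the other glycolytic enzymes, GAPDH overlapped, and PGK1 had 175 and 161 RPKM at day 3 and 239 and 200 RPKM at day 2. Of 15 tested genes of glycolysis and hypoxia 12 were lower and 3 higher, with a median of -0.23, and of -0.39 without day 3 replicate 2.

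Some epithelial genes were detected on both days. KRT19, a keratin of simple epithelia, had 221 and 144 RPKM at day 3 and 259 and 329 RPKM at day 2, beside 5.94 and 6.29 RPKM in co-culture. CLDN4, a tight junction protein, had 6.60 and 10.3 RPKM at day 3 and 20.5 and 32.2 RPKM at day 2, a log2 fold change of -1.53 ± 0.59 with an adjusted p of 0.569. KRT8, the partner keratin, had 361 and 195 RPKM at day 3. It was missing, and taken as 0, in 1 day 2 library, with 233 RPKM in the other, and its groups overlapped. As for UROD and PFKL, such a 0 may be a failed estimate, and no fold is given. KRT14, a keratin of the basal epidermis, was low on both days, at 2.73 and 3.85 RPKM at day 3 and 0.531 and 0 RPKM at day 2. It passed the filter through day 3 alone, so it could only be higher. Of the 5 epithelial genes tested 3 were lower and 2 higher, with KRT8 counted among the higher. CLDN7, another claudin, overlapped at 5.57 and 18.6 RPKM at day 3 and 16.2 and 24.2 RPKM at day 2, beside 6.54 and 4.30 RPKM in co-culture. CLDN3 was missing from all 4 tables, and OCLN, which encodes occludin, stood below 1 RPKM in all 4 and at 1.10 and 1.40 RPKM in co-culture.

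Ribosomal protein genes had a median close to that of all genes. Of 41 tested genes 31 were lower and 10 higher, 13 had both day 3 libraries below both day 2 libraries, beside 24.5% of all genes, 2 had both above, beside 12.5%, and 0 were called. The median log2 fold change was -0.25, beside -0.18 for all genes, and it was -0.014 without day 3 replicate 1 and -0.46 without day 3 replicate 2. RPL6 had 682 and 728 RPKM at day 3 and 1105 and 1138 RPKM at day 2, and RPL4 had 948 and 978 RPKM at day 3 and 1339 and 1388 RPKM at day 2. RPS15A had 712 and 226 RPKM at day 3 and 1012 and 951 RPKM at day 2. Ribosomal protein genes have many processed pseudogenes, and no source used here says how reads shared with them were assigned.

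Proteasome subunits gave 19 lower and 5 higher of 24 tested, with a median of -0.27 that turned to 0.086 without day 3 replicate 2. Among lysosomal genes, 12 of 17 were lower and 5 higher; GLA, which encodes alpha-galactosidase A, had 9.25 and 1.39 RPKM at day 3 and 14.8 and 24.1 RPKM at day 2. The cholesterol synthesis list was divided, with 5 of 10 higher and 5 lower. MVK, mevalonate kinase, had 4.56 and 8.93 RPKM at day 3 and 2.30 and 1.05 RPKM at day 2, and HMGCS1, which acts earlier in the same pathway, had 2.73 and 1.73 RPKM at day 3 and 5.17 and 6.11 RPKM at day 2.

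Growth factor genes had no common direction either. IGFBP5, a binding protein of insulin-like growth factors stored in the matrix, had 936 and 513 RPKM at day 3 and 377 and 323 RPKM at day 2, a log2 fold change of 0.99 ± 0.32 with an adjusted p of 0.535. IGFBP6 lay the other way, at 152 and 270 RPKM at day 3 and 343 and 398 RPKM at day 2. AREG, a ligand of the EGF receptor, had 3.39 and 21.6 RPKM at day 3 and 27.4 and 23.1 RPKM at day 2. Of the WNT genes, the ligand WNT5A had 13.99 and 12.3 RPKM at day 3 and 6.21 and 6.23 RPKM at day 2. The antagonist SFRP2 was at 0 and 0.628 RPKM at day 3 and 2.75 and 2.71 RPKM at day 2. SFRP2 passed the filter through day 2 alone, so it could only be lower.

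Of 8 mesenchymal regulators 7 were higher and 1 lower, with a median log2 fold change of 0.52, and of 0.16 without day 3 replicate 1. CDH11, a cadherin of mesenchymal cells, had 32.2 and 21.2 RPKM at day 3 and 15.6 and 18.7 RPKM at day 2. Both day 3 libraries lay above both day 2 libraries in 2 of the 8, CDH11 among them, beside 12.5% of all genes. In the other members, the lower one included, the days overlapped. Matrix proteases and their inhibitors gave 6 higher and 5 lower of 11, with a median of 0.14 and with TIMP2, a metalloproteinase inhibitor, at 221 and 205 RPKM at day 3 and 144 and 174 RPKM at day 2. The p53 targets gave 3 higher and 2 lower of 5, chromatin regulators 5 higher and 5 lower of 10, histones 1 higher and 5 lower of 6, and genes of DNA methylation and repair 1 higher and 3 lower of 4. DNMT1, the maintenance DNA methyltransferase, had 30.9 and 23.6 RPKM at day 3 and 41.8 and 36.9 RPKM at day 2. The S100 and annexin list gave 2 higher and 2 lower of 4, antigen presentation 4 higher and 1 lower of 5, the IL6 list 5 higher and 3 lower of 8, with a median of 0.40, and both tested genes of the unfolded protein response were lower. Of the markers of other cell types, 3 of 11 covered haematopoietic, 2 of 6 endothelial and 3 of 4 keratinocyte genes passed the filter. The most abundant was RUNX1, a transcription factor of blood that other cells also use, at 35.1 and 26.5 RPKM at day 3 and 12.6 and 20.3 RPKM at day 2. In none of these lists was a gene called.

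Several genes were low in day 3 replicate 2 alone. ANXA1, a phospholipid-binding protein, had 177 and 21.2 RPKM at day 3 and 258 and 252 RPKM at day 2. CAV1, which forms caveolae, had 214 and 32.1 RPKM at day 3 and 132 and 118 RPKM at day 2, and the chromatin protein HMGB1 had 50.8 and 9.78 RPKM at day 3 and 57.5 and 70.0 RPKM at day 2. When day 3 replicate 1 was left out, limma called 11 genes lower, these among them, with adjusted p values of 0.0156 for ANXA1 and 0.0470 for CAV1 and HMGB1. In that fit the remaining day 3 library is assumed to vary like the other groups, and the replicate left out had CAV1 above both day 2 libraries. The cause was not tested.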

How the data were processed

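Polyadenylated RNA was sequenced on libraries from fused and unfused cells. The deposited tables give 1 value per RefSeq transcript, taken here as RPKM normalized by the authors to transcript length and library; this unit is inferred from the values, which do not tell RPKM, FPKM and TPM apart. The submitters' processing notes name the builds hg19 and mm10; the aligner and the counting rule are not given in the sources used here. The tables run in accession order, list no value of 0 and stop after 10000 distinct values. A human coding transcript missing before the stop was taken as 0, and values were summed per gene. After the data were seen, genes with a 6-digit accession whose digits open a 9-digit one were set aside, since the tables list almost none of these.

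Levels were transformed to log2(RPKM + 1) and fitted with limma 3.58.1 in R 4.3.3 (lmFit, eBayes with a trend) over 8 libraries of 4 groups: day 3, day 2 and day 1 heterokaryons and co-culture. Unfused fibroblast libraries entered only an alternative; the third holds no human accession, and the homokaryon library was not used in a fit. Tests are two-sided, with Benjamini-Hochberg adjustment over the 2174 genes tested and a threshold of 0.05; errors are SE of the fit. In data simulated from these libraries, 50 genes each had a log2 change of 1, 2, 3 and 4. The fit called 24%, 96%, 100% and 100% of them, and 10 unchanged genes besides. The changed genes came from the upper 50% of mean level. The simulated spread followed 1 smooth trend with level, the same in every library, without the wider spread of day 3. These shares therefore do not measure what the fit can detect in the real libraries. Named genes are the 10 higher and 10 lower with the smallest unadjusted p among separated genes in the upper 50% of mean level, all covered pluripotency and cleavage stage genes, and up to 3 genes per list by p; further list members were named after their values were seen, and a few genes that the rule chose are not reported here. The 38 lists and their members were chosen with earlier results of these data known. Same-numbered day 3 and day 2 replicates did not deviate together (r = -0.115), so the numbers were not taken as pairs. Alternatives were other filters, pseudocounts, scalings, sets of libraries and genes, and leaving out each library.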

Additional observations from a re-analysis of the deposited data

How the results depend on the processing

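The count of 0 called genes held under 22 of 25 alternatives and differed under 3. With genes covered only in part added, limma called 4 genes, 2 higher and 2 lower, and 325 genes stood at an unadjusted p under 0.05 in place of 171; with a filter of 5 RPKM that number was 112. Leaving out 1 library at a time gave 0 to 11 called genes, 0 to 1 higher and 0 to 11 lower, and 90 to 302 genes at an unadjusted p under 0.05. The 11 came without day 3 replicate 1, and the 1, UROD, without day 2 replicate 2, which left as its day 2 value only a missing transcript taken as 0. With a replicate block 0 genes were called and 167 stood at an unadjusted p under 0.05; with a replicate block in which the day 3 numbers were crossed, chosen after seeing the data, the counts were 0 and 168. Genes with a lost accession, kept as an alternative chosen after seeing the data, added 0 calls. Of the genes named, 117 were followed through every alternative that tested them, and 2850 of 2881 values had the same direction and no call. The 15 genes whose sign turned had overlapping groups, and the cause was not tested. The TRIM71 log2 fold change ran from -0.055 to 0.33 with 1 library left out, the KLF5 log2 fold change from -0.43 to 0.67, the VIM log2 fold change from -0.21 to 0.23, the COL1A2 log2 fold change from -0.012 to 0.43, the COL5A2 log2 fold change from -0.22 to 0.051, and the SPARC log2 fold change from -0.081 to 0.15. Likewise the FBN1 log2 fold change ran from -0.39 to 0.18, the DES log2 fold change from -0.50 to 0.089, the TGFB1 log2 fold change from -0.50 to 0.47, the IFIT1 log2 fold change from -3.05 to 0.19, the IRF1 log2 fold change from -0.51 to 0.21, the FTL log2 fold change from -0.17 to 0.43, the HSPB2 log2 fold change from -0.21 to 0.035, and the CAV1 log2 fold change from -1.93 to 0.77. Quantile normalization turned the VIM log2 fold change to -0.12, the TGFB1 log2 fold change to 0.0031, the JAK1 log2 fold change to 0.039 and the HSPB2 log2 fold change to 0.0083, and upper quartile scaling turned that of TGFB1 to 0.053. The depth is not known, and with 2 libraries a day a log2 change of 1 is mostly missed in simulated data. The simulation lacked the wider spread of day 3, so it does not measure what the fit can detect in the real libraries.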

Other observations

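Genes present on 1 day and missing on the other, where a missing transcript was taken as 0, were not equal in number. Of the 4624 genes used, 19 stood at 1 RPKM or more in both day 2 libraries and at 0 in both day 3 libraries, and 4 showed the reverse. Among the 2174 genes tested, 118 and 90 were at 0 in the day 3 libraries and 24 and 100 in the day 2 libraries. How far the 19 and the 4 follow from such differences in detection was not tested. The genes named in this paragraph were chosen after their values were seen. PPY, the pancreatic polypeptide gene, had the smallest p of all genes tested, with 0 in both day 3 libraries and 6.05 and 7.42 RPKM at day 2 (adjusted p = 0.167, limma). It passed the filter through day 2 alone, so it could only be lower. It was also at 0 in the day 1 and co-culture libraries, as were 7 of the 19 genes in all, among them MAGEA4, a cancer-testis antigen, at 1.15 and 2.35 RPKM at day 2. Of the 4 genes of the reverse kind, NFKBIB, an inhibitor of NF-kappa-B, stood at 2.90 and 3.997 RPKM at day 3, and ORM1, an acute phase glycoprotein, at 3.65 and 1.51 RPKM. None of these levels exceeded 7.42 RPKM.

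Genes with only some of their coding transcripts inside the listed stretch gave the 4 calls of the comparison with all libraries. Over its 2 covered transcripts of 3, SERPINE2, a protease inhibitor of the matrix, stood at 240 and 285 RPKM at day 3 and at 3.53 and 1.39 RPKM at day 2, beside 75.5 and 85.6 RPKM at day 1. SPON2, a secreted matrix protein, was at 0 in both day 3 libraries and at 42.1 and 43.5 RPKM at day 2. EMC6 stood at 19.4 and 30.2 RPKM at day 3 and at 0 in both day 2 libraries, and ETS2 at 0 in both day 3 libraries and at 29.4 and 24.5 RPKM at day 2. The transcripts not covered may hold the missing share, which was not tested.

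The tables appear to have lost a class of transcripts. Of 151 human coding accessions of 6 digits whose digits open an accession of 9 digits, 1 was listed in any library (0.7%). Of 104 accessions of 6 digits in the same number range that open none, 88 were listed (84.6%). Genes touched by this include RPS3, RPS20, RRM2 and BIRC5, for which a 0 in these tables does not measure expression.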
